A study of Homo sapiens with 24 samples.

Results

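The kinetochore is the protein assembly that forms on each centromere and holds the chromosome to spindle microtubules during mitosis. It is built outward from centromeric chromatin through the constitutive centromere-associated network (CCAN) to the KMN network, which binds the microtubule, and the spindle checkpoint kinases and adaptors recruited there delay anaphase until chromosomes are attached. Transcripts of many of these proteins are known to peak in G2 and mitosis and to be low in cells outside the cell cycle, whereas the proteins of the inner assembly can also stay on the centromere through interphase. The 47 genes described here are all those of a list of kinetochore and spindle checkpoint genes, taken by gene symbol from the deposited read-count table of 14493 genes. The rule used gene symbols and no measured value, but the list was chosen with earlier results of these data known. All 47 were found and passed the filter on low counts in every comparison.

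SKBR3, a HER2-positive human breast cancer cell line, was profiled by RNA-seq in 24 libraries that formed 8 groups of 3. The study asked how cells driven into therapy-induced senescence (TIS) by inhibitors of fatty acid synthesis (FASTIS cells) compare with cells given other TIS inducers. All treated cells were collected on day 7 with the drug given again on day 3. FASTIS cells received 250 nmol/L of ND-646, which inhibits acetyl-CoA carboxylase, or 250 nmol/L of TVB-3166, which inhibits fatty acid synthase. Other TIS cells received 10 umol/L of bleomycin, which breaks DNA, 10 nmol/L of doxorubicin, a topoisomerase II poison, 500 nmol/L of alisertib, an Aurora A kinase inhibitor, or 1 umol/L of palbociclib, a CDK4/6 inhibitor that the labels spell Palboclib. Untreated cells were collected on day 0, as proliferative controls, and on day 7. Labels name a refeed on day 3 for all treated cells and none for untreated day-7 cells. A difference in refeeding and the drug itself therefore cannot be told apart in comparisons with untreated cells. Nothing in the labels says whether the 3 libraries of a group came from separate cultures, so p-values measure only the spread between these libraries.

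Total counts per library ranged from 29405121 to 44316330. The 47 genes had between 20 and 14760 counts in any library. The label of the cell line was checked with ERBB2, which was at 5688 to 8271 CPM (counts relative to the library total, scaled with TMM normalization) in group means and is amplified in SKBR3. The epithelial keratins KRT8 and KRT18 were also abundant. PTPRC, COL1A2, PECAM1, LUM and CD3E, markers of other cell types, were not in the table, and COL1A1 was at 7.62 to 12.3 CPM.

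Promoter sequences are shown for 6 genes, to set the deepest falls beside genes that did not move with them. A window from 250 bases before to 50 bases after the start site (RefSeq, GRCh38.p14) was at hand for 39 of the 47 genes, in 45 windows. Letters of the cell cycle homology region (TTTGAA, or TTCAAA on the other strand), an element found in promoters of G2/M genes, and of the CCAAT box (CCAAT, or ATTGG on the other strand) are in capitals. The windows are those of SPC25 (chr2:168890381-168890680, minus strand) and SKA1 (chr18:50374796-50375095, plus strand), which fell furthest in ND-646 cells, and of the checkpoint genes BUB1B (chr15:40160819-40161118, plus strand) and MAD2L1 (chr4:120066799-120067098, minus strand). CENPC (chr4:67545454-67545753, minus strand) and ITGB3BP (chr1:63523176-63523475, minus strand) passed the test against day-0 cells in no group.
SPC25: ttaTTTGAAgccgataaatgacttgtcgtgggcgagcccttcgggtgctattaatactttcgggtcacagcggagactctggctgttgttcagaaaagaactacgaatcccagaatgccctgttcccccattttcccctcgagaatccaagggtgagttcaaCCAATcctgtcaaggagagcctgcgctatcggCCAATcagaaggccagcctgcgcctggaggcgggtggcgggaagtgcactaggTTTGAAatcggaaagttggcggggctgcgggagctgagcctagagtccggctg
SKA1: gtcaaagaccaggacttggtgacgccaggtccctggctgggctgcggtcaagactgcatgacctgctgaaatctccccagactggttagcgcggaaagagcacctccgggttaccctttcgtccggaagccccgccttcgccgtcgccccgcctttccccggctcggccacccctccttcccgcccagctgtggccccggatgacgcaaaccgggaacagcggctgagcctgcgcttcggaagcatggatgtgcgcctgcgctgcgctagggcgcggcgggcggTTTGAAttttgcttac
BUB1B: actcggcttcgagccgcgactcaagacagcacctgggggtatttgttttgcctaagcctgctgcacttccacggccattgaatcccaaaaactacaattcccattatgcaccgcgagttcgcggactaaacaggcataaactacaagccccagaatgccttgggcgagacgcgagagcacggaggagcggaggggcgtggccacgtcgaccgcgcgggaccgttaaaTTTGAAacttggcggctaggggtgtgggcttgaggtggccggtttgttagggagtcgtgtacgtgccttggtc
MAD2L1: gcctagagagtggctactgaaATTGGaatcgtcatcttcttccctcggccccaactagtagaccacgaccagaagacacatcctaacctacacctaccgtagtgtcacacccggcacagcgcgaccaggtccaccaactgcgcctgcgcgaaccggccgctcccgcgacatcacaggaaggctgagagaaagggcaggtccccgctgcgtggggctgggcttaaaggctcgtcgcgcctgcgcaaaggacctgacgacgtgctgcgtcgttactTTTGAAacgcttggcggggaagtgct
CENPC: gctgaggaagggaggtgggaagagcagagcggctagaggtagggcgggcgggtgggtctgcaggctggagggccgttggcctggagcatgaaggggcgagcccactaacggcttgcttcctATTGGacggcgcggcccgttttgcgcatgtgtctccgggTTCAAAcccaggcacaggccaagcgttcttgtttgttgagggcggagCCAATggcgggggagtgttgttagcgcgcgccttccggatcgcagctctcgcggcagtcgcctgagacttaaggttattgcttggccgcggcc
ITGB3BP: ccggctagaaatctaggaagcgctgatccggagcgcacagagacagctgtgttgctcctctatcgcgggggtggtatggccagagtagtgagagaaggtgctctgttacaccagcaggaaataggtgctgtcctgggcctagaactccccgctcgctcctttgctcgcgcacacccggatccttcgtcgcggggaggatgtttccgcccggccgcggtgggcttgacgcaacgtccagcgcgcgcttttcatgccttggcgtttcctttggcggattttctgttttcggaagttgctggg

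The cell cycle homology letters began 3 bases before the SPC25 start site, at -3, and again at -247, at -23 in BUB1B, at 25 in MAD2L1 and at 35 in SKA1. CENPC held them as well, on the other strand at -90, together with 2 CCAAT boxes, and ITGB3BP held neither motif. Each falling gene shown held TTTGAA, but deep falls were also seen without it. Among windows not shown, that of BUB1 (-2.75 in ND-646 cells) held CCAAT and no TTTGAA, and that of CENPI (-2.97) held neither. TTTGAA on either strand was in 18 of the 45 windows (40.0%), against 15.2% of 35116 RefSeq promoter windows of the same length. CCAAT was in 62.2% of the windows against 34.6% of all, and the other spelling TTTAAA in 13.3% against 12.2%. TTTNNCGC, the E2F letters, was in 9 of the 45 windows, a larger share than the 6.89% of all windows (2418 of 35116). The E2F letters were also searched as GCGNNAAA on the other strand, and TTTAAA reads the same on both strands. The median log2 fold-change in ND-646 cells was -2.78 over the 17 genes whose window held TTTGAA and -2.24 over the 22 whose window did not. For E2F the order was the other way, at -1.44 over the 8 genes with it and -2.56 over the 31 without. These matches are descriptions of the windows and were not tested.

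The summed level of the 47 genes was lower in all 6 drug groups than in untreated day-0 cells, and by very different amounts. Day-0 libraries held 2242, 2053 and 2245 CPM of these transcripts, and ND-646 libraries 587.5, 510.6 and 570.4 CPM. The sum was 891.3 ± 100.3 CPM (SD, n = 3) in TVB-3166 cells, 847.6 ± 217.2 in bleomycin cells and 1041 ± 104.6 in palbociclib cells. It was 1390 ± 87.5 in doxorubicin cells and 1658 ± 110.3 in alisertib cells. The bleomycin libraries were the least alike, at 1009, 600.6 and 933.2 CPM, and replicate 2 was the lowest of them. Untreated day-7 cells held 1899 ± 73.9 CPM, and each of their libraries was below each day-0 library. In bulk RNA, fewer cells that carry a transcript and less of it per cell cannot be told apart.

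**Figure D1:**
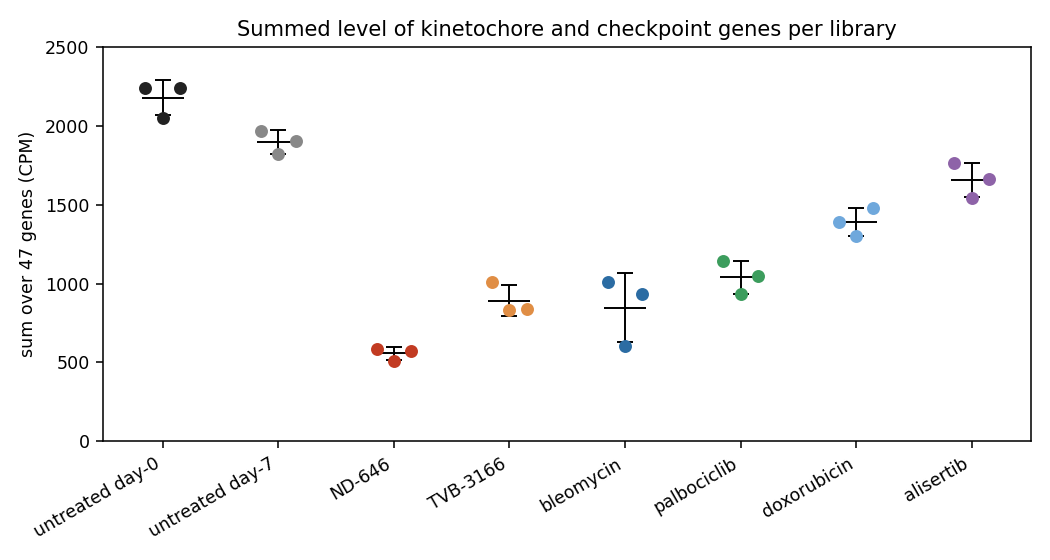
Summed level of the 47 kinetochore and spindle checkpoint genes (CPM, linear axis from 0) in each of the 24 libraries; each point is a library, and the bar gives the mean and SD of a group of 3. ND-646 libraries sit between 510.6 and 587.5 CPM and day-0 libraries between 2053 and 2245 CPM, with the bleomycin libraries spread from 600.6 to 1009 CPM.

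Tested gene by gene against day-0 cells with edgeR's quasi-likelihood test (Benjamini-Hochberg adjusted p under 0.05), 41 of the 47 genes fell in ND-646 cells, where 18.8% of all genes tested fell, and none rose, where 19.1% of all genes rose. In TVB-3166 cells 43 fell (27.7% of all genes), in bleomycin cells 42 (25.3%), in palbociclib cells 43 (27.2%) and in doxorubicin cells 39 (24.8%). Alisertib cells had 23 that fell, beside 19.6% of all genes. The median log2 fold-change of the 47 was -2.47 in ND-646 cells, so that the median gene kept 18.1% of its day-0 level. It was -1.37 with TVB-3166, -1.32 with bleomycin, -0.998 with palbociclib, -0.61 with doxorubicin and -0.33 with alisertib, whereas the median over all genes tested lay between -0.01 and 0.02 in these 6 comparisons. At a fold-change of at least 2 as well, 38 genes fell in ND-646 cells (8.95% of all genes), 33 in TVB-3166 cells (6.69%), 34 in bleomycin cells (7.19%), 23 in palbociclib cells (6.09%), 7 in doxorubicin cells (2.85%) and 1 in alisertib cells (1.38%). These comparisons share the 3 day-0 libraries and are not independent of each other. The alisertib count was 14 without alisertib replicate 2 and 15 without alisertib replicate 3.

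Against untreated day-7 cells, collected on the same day as the treated cells, 41 of the 47 genes were lower in ND-646 cells (17.1% of all genes tested), 42 in TVB-3166 cells (26.1%), 43 in bleomycin cells (23.2%) and 41 in palbociclib cells (22.9%). Doxorubicin cells had 33 (21.5%). Alisertib cells had only 8, beside 9.49% of all genes: CENPM, ZWINT, NSL1, PMF1, SPC25, SKA1, SKA2 and CENPE. The alisertib count thus depended on which untreated group was the reference. Replicate numbers were read as pairs in the bleomycin and alisertib comparisons with day-7 cells, and with a replicate block 43 (24.9% of all genes) and 14 (14.7%) were lower. In untreated day-7 cells themselves, none of the 47 genes passed the edgeR test against day-0 cells, where 0.198% of all genes fell and 0.389% rose. Their median log2 fold-change was -0.18, beside 0.01 over all genes. Of the 47, 34 were below 0, 14 had an unadjusted p under 0.05, and DESeq2 called 7 lower. The shares of all genes below 0, under that unadjusted p or called by DESeq2 were not counted.

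**Figure D2:**
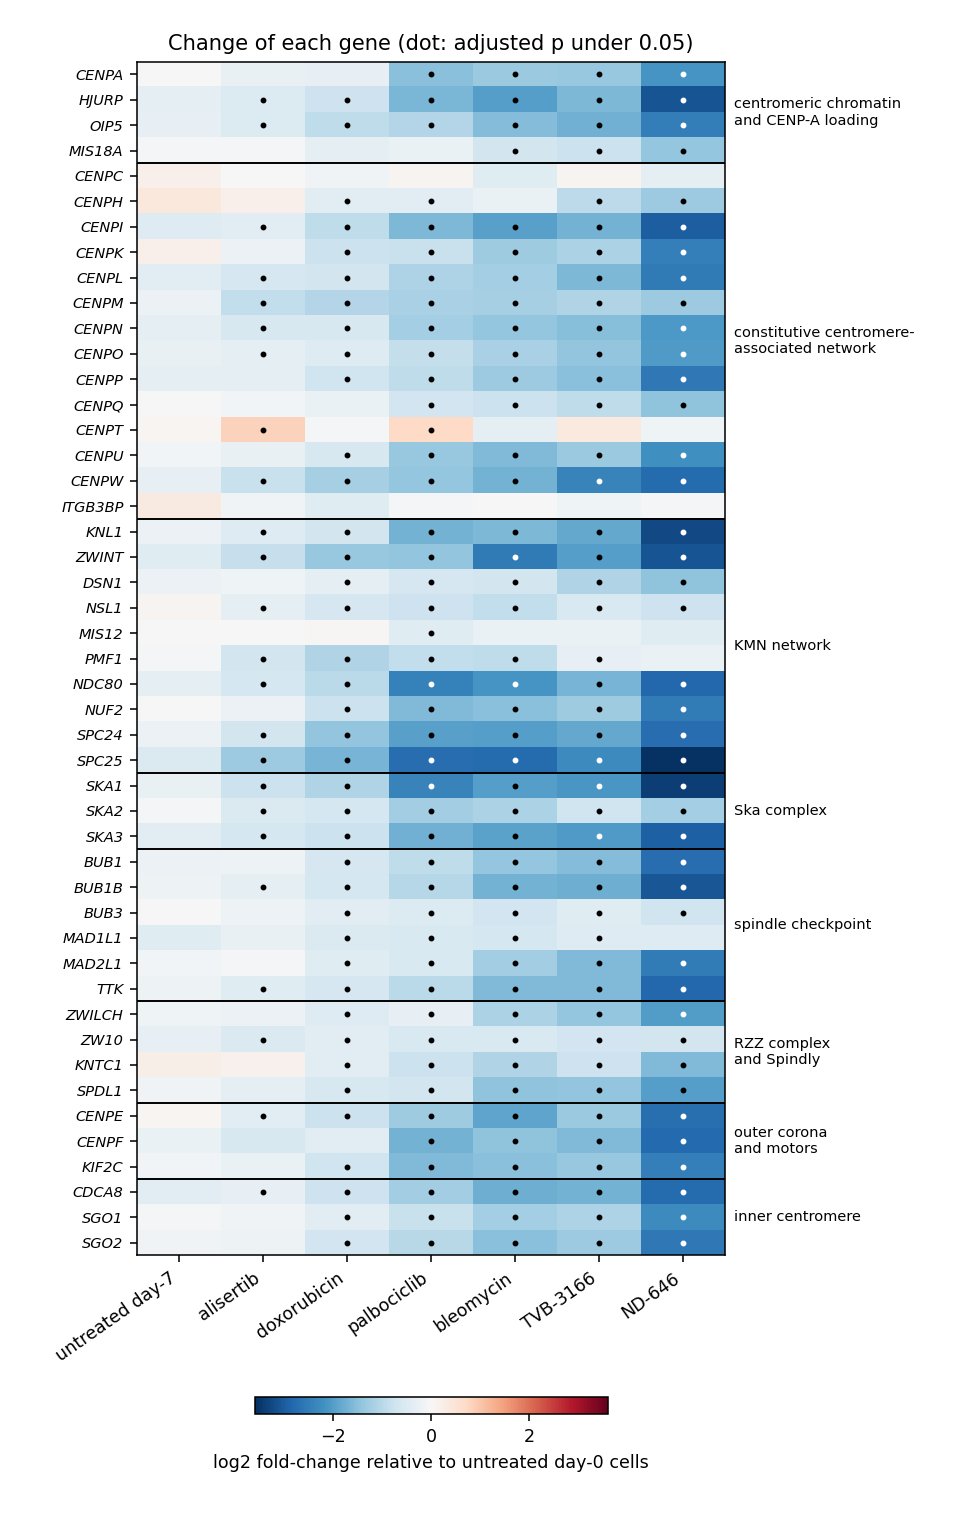
Log2 fold-change of each of the 47 genes relative to untreated day-0 cells (colour scale) in untreated day-7 cells and the 6 drug groups, with genes ordered by role and a dot where the adjusted p was under 0.05. The ND-646 column is the darkest for most genes, the rows of CENPC, ITGB3BP and MIS12 do not go below -0.44, and CENPT is above 0 in palbociclib (0.71) and alisertib cells (0.83).

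Among the 6 drug groups, 22 genes fell in every group, 15 in 5 groups and 5 in 4 groups. Against untreated day-7 cells, 7 were lower in every group: CENPE, CENPM, NSL1, SKA1, SKA2, SPC25 and ZWINT. The share of all genes lower in several groups at once was not counted for either reference. In single groups, 18.8% to 27.7% of all genes fell against day-0 cells and 9.49% to 26.1% were lower against day-7 cells. The 22 included all 3 subunits of the Ska complex (SKA1, SKA2 and SKA3), which stabilises the hold on a depolymerising microtubule, and 3 of the 4 subunits of the NDC80 complex. ND-646 cells had the lowest mean of the 8 groups for 39 genes, bleomycin cells for 4, doxorubicin cells for 2 and TVB-3166 and palbociclib cells for 1 each. The share of all genes with their lowest mean in each group was not counted. MIS18A fell in 3 groups, and CENPC, CENPT and ITGB3BP in none. MIS12 passed the test in palbociclib cells (-0.42) and had a like value in ND-646 cells (-0.44, adjusted p = 0.0666). The palbociclib call was lost with library totals and without day-0 replicate 3 or palbociclib replicate 1 or 2, and the ND-646 value passed with library totals, in a fit of all 24 libraries, against day-7 cells and without ND-646 replicate 1.

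MKI67, PCNA and TOP2A, markers of proliferating cells, also had their lowest group means in ND-646 cells. PCNA was at 215.3 CPM in day-0 cells, 50.6 (SD 7.2) in ND-646 and 126.2 in alisertib cells. Its means in bleomycin (54.2, SD 12.0) and palbociclib cells (56.2, SD 10.2) were close to that of ND-646 cells. MKI67 was at 444.1 CPM (SD 206.4) in day-0 cells and at 277.2 in untreated day-7 cells. It was at 34.3 in ND-646, 71.0 in palbociclib, 87.5 in TVB-3166, 102.9 in bleomycin, 200.4 in alisertib and 218.4 in doxorubicin cells. MKI67 fell in all 6 drug groups against day-0 cells. The MKI67 mean was lower in alisertib (SD 52.9) than in doxorubicin cells (SD 22.6), where more of the 47 genes fell. PCNA and TOP2A had the other order, at 126.2 and 608.5 CPM in alisertib cells and 100.1 and 566.3 CPM in doxorubicin cells. TOP2A fell in 5 and had a log2 fold-change of -0.30 (adjusted p = 0.1015) in alisertib cells. The part of a changed share of cycling cells in the falls was not tested.

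The 4 genes of centromeric chromatin, which mark the centromere and renew the mark each cycle, all fell in ND-646, TVB-3166 and bleomycin cells. HJURP, the chaperone that deposits CENP-A, was at 43.2, 39.5 and 43.0 CPM in day-0 libraries and at 5.78, 2.76 and 6.18 CPM in ND-646 libraries. The groups were far apart, and HJURP was 8.64-fold lower (log2 fold-change -3.11, SE 0.28, adjusted p = 8.117e-05). CENPA, the centromeric histone H3 variant itself, fell less (-2.14), and in doxorubicin and alisertib cells its values of -0.31 and -0.26 did not pass the test. OIP5, a subunit of the Mis18 complex, fell in all 6 drug groups (-2.50 in ND-646 cells, -0.50 in alisertib cells). MIS18A, of the same complex, fell by 1.39 in ND-646 cells and did not pass the test in palbociclib cells (-0.23), doxorubicin cells (-0.33) or alisertib cells (-0.08).

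Within the CCAN, the layer that joins CENP-A chromatin to the outer kinetochore, 11 of 14 genes fell in ND-646 cells, with a median of -2.05, and 11, 10, 11, 10 and 6 fell in TVB-3166, bleomycin, palbociclib, doxorubicin and alisertib cells. CENPI had the lowest value in ND-646 cells (-2.97). CENPW, a histone-fold subunit, was at 15.4, 11.6 and 12.4 CPM in day-0 libraries and at 2.91, 2.47 and 2.02 CPM in TVB-3166 libraries, the largest fall of any of the 47 genes in that group (-2.41, adjusted p = 2.774e-06). CENPT, its partner in the CENP-T-W-S-X complex, went the other way. Its day-0 libraries were at 12.0, 14.5 and 14.3 CPM, its palbociclib libraries at 21.3, 20.7 and 24.8 CPM and its alisertib libraries at 16.7, 26.1 and 29.3 CPM. Neither drug group overlapped day-0 cells.

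CENPT rose in palbociclib cells by 0.71 (SE 0.13, adjusted p = 0.000972) and in alisertib cells by 0.83 (SE 0.19, adjusted p = 0.00743), and it was the only one of the 47 genes called higher in any drug group. In these comparisons 26% and 17.7% of all genes rose. Against untreated day-7 cells it was higher in both groups, where 22% and 9.55% of all genes were, and lower in bleomycin cells. In ND-646 cells it was at 12.9, 11.6 and 12.1 CPM (-0.17, adjusted p = 0.448), in TVB-3166 cells at 15.2, 16.8 and 19.7 CPM (0.35, adjusted p = 0.0527) and in bleomycin cells at 10.8, 11.1 and 10.6 CPM (-0.33, adjusted p = 0.0920). The TVB-3166 value passed the test with DESeq2, RLE size factors, a minimum of 10 counts, the replicate block and without TVB-3166 replicate 1. CENPT (GRCh37 chromosome 16, 67862060 to 67881714, minus strand) overlaps NUTF2 and THAP11 on the opposite strand, but none of its exons overlaps one of theirs.

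CENPC, which links CENP-A nucleosomes to the MIS12 complex, was at 14.4, 14.4 and 19.0 CPM in day-0 libraries and at 8.82, 14.6 and 14.2 CPM in ND-646 libraries, and the ranges overlapped. Its log2 fold-changes ran from -0.44 in bleomycin cells (adjusted p = 0.0660) to 0.11 in TVB-3166 cells. The bleomycin value passed the test in a fit of all 24 libraries, with the replicate block, against day-7 cells and without bleomycin replicate 3. ITGB3BP, which encodes CENP-R, was at 11.6, 8.66 and 11.3 CPM in day-0 libraries and at 11.8, 11 and 8.11 CPM in ND-646 libraries. Its values ran from -0.43 in doxorubicin cells (adjusted p = 0.0722) to -0.002 in bleomycin cells, and the doxorubicin value passed in a fit of all 24 libraries, against day-7 cells and without day-0 replicate 2 or doxorubicin replicate 2. The other named subunits of the CENP-O-P-Q-R-U complex that were measured here, CENPO, CENPP, CENPQ and CENPU, fell in ND-646 cells, at -1.45 (CENPQ) to -2.58 (CENPP). Exons of CENPL, CENPO, CENPP and CENPU, and of OIP5, overlap exons of another listed gene on the opposite strand, and the use of strand in counting is not given in the sources used here, so their counts are less certain.

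**Figure D3:**
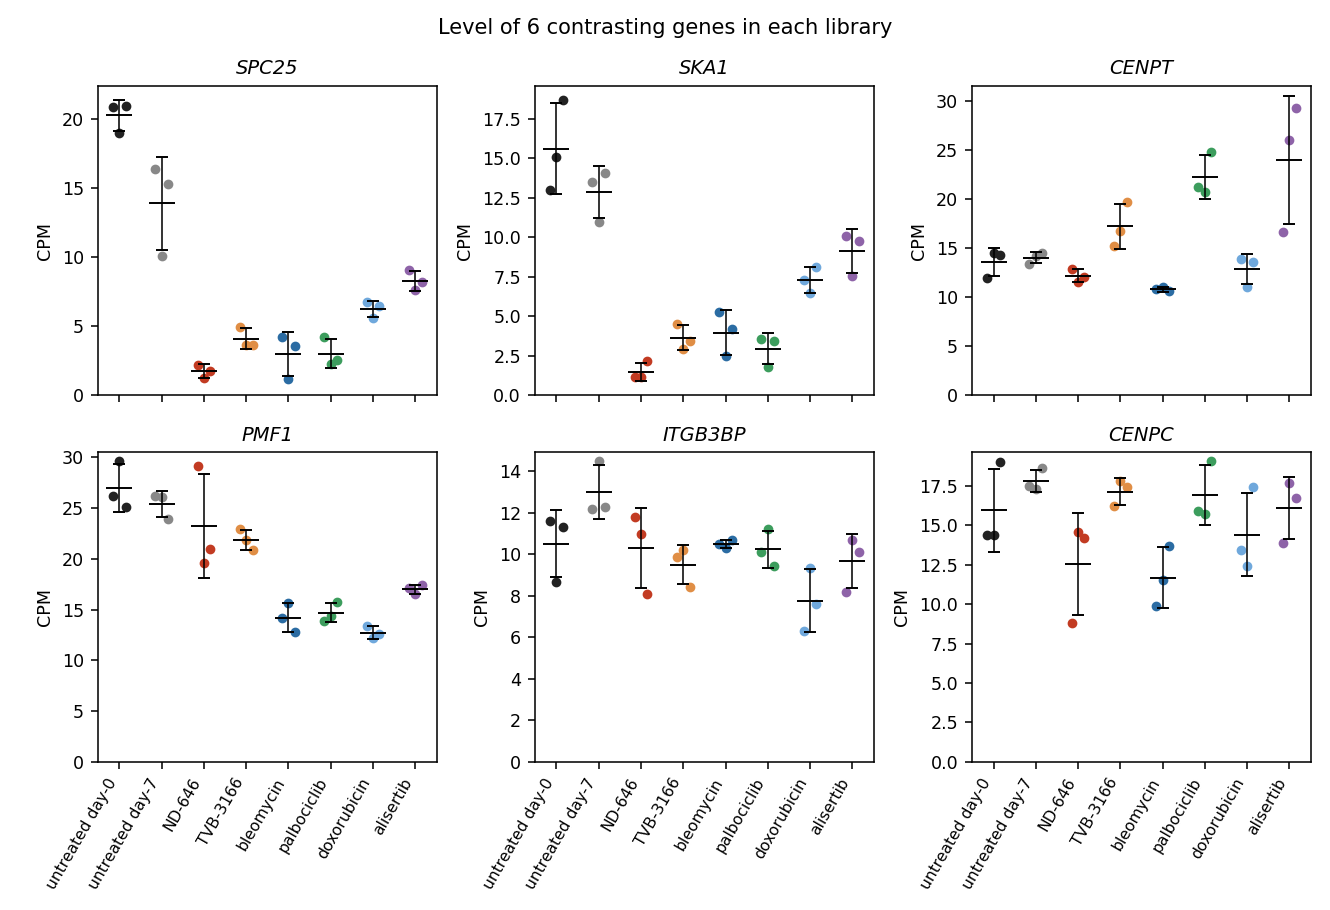
Level (CPM) of 6 genes in each library by group: SPC25, SKA1, CENPT, PMF1, CENPC and ITGB3BP, with 1 panel per gene, points for libraries and bars for the mean and SD of 3. SPC25 and SKA1 drop in every drug group, CENPT is highest in palbociclib and alisertib cells, and CENPC and ITGB3BP had no call against day-0 cells.

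The KMN network, the microtubule-binding core, held the deepest fall in ND-646 cells, that of SPC25, and also a pair of genes without a call there. SPC25, which anchors the NDC80 complex to the MIS12 complex, was at 20.9, 19.0 and 21.0 CPM in day-0 libraries and at 2.23, 1.26 and 1.79 CPM in ND-646 libraries. It was 11.7-fold lower there (log2 fold-change -3.55, SE 0.24, adjusted p = 2.142e-05), and no ND-646 library came near the day-0 range. SPC25 also had the lowest value of the 47 genes in bleomycin (-2.76), palbociclib (-2.75), doxorubicin (-1.68) and alisertib cells (-1.29). Its alisertib libraries, at 9.05, 7.65 and 8.18 CPM, remained apart from the day-0 libraries.

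KNL1, the scaffold on which BUB1 and BUB1B assemble, was at 102, 78.8 and 93.8 CPM in day-0 libraries and at 8.27, 9.54 and 11.5 CPM in ND-646 libraries (-3.24, SE 0.19, adjusted p = 1.523e-05). ZWINT, its partner, was the most abundant of the 47 genes per length in day-0 cells, at 134.5 CPM per kb of transcript, ahead of KIF2C at 30.6. ZWINT was at 217, 261 and 271 CPM in day-0 libraries and at 26.7, 27.7 and 33.1 CPM in ND-646 libraries (-3.11, SE 0.17, adjusted p = 1.523e-05). The NDC80 complex subunits NDC80, NUF2 and SPC24 fell in ND-646 cells, at -2.51 (NUF2) to -2.83 (NDC80). The MIS12 complex behind them did not follow to the same extent. DSN1 fell by 1.45 and NSL1 by 0.75, MIS12 was at -0.44 (adjusted p = 0.0666) and PMF1 at -0.23 (adjusted p = 0.347). Without ND-646 replicate 1, MIS12 and PMF1 both passed the test.

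PMF1 had another order of groups. Its libraries were at 26.2, 29.6 and 25.1 CPM on day 0, at 29.1, 19.6 and 21.0 CPM in ND-646 cells and at 22.9, 21.8 and 20.9 CPM in TVB-3166 cells, where it fell by 0.30 (adjusted p = 0.0395). That call was lost with library totals, with the replicate block, against day-7 cells, without day-0 replicate 2 and without each TVB-3166 library. In doxorubicin cells it was at 13.4, 12.2 and 12.6 CPM, and it fell by 1.07. It fell by 0.92 in bleomycin, 0.88 in palbociclib and 0.66 in alisertib cells. PMF1 was chosen here after its values were seen.

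All 3 Ska genes fell in all 6 drug groups against day-0 cells. Against day-7 cells SKA3 did not pass the test in doxorubicin (-0.35) or alisertib cells (-0.19). SKA1, the microtubule-binding subunit, was at 13, 15.1 and 18.7 CPM in day-0 libraries and at 1.16, 1.15 and 2.14 CPM in ND-646 libraries, and was 10.5-fold lower (-3.39, SE 0.30, adjusted p = 7.354e-05). SKA3 fell by 2.94 and SKA2 by 1.23 in the same cells. In palbociclib cells SKA1 fell by 2.40 and in TVB-3166 cells by 2.09, and the direct comparison of these groups gave -0.30 (SE 0.27, adjusted p = 0.4094).

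Of the 6 spindle checkpoint genes, 5 fell in ND-646 cells: BUB1, BUB1B, TTK and MAD2L1 at -2.52 (MAD2L1) to -3.09 (BUB1B), and BUB3 at -0.73. BUB1, a kinase that recruits checkpoint proteins to KNL1, was at 85.3, 78.5 and 83.9 CPM in day-0 libraries and at 13.5, 8.86 and 14.7 CPM in ND-646 libraries. BUB1B, which encodes BubR1 of the mitotic checkpoint complex, went from 87.5, 82.2 and 95.8 CPM to 9.64, 8.97 and 12.8 CPM. Neither gene's groups overlapped, and they fell by 2.75 (adjusted p = 3.286e-05) and 3.09 (adjusted p = 1.523e-05). TTK, the kinase MPS1 at the head of the checkpoint, went from 52.2, 47.4 and 52.0 CPM to 7.62, 5.96 and 8.14 CPM. MAD2L1, which holds CDC20 away from the anaphase-promoting complex, went from 66.8, 55.7 and 65.3 CPM to 9.72, 12.2 and 11.1 CPM. These were falls of 2.82 and 2.52.

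BUB3, the adaptor of BUB1 and BubR1, fell by 0.73 in ND-646 cells, from 99.6, 116 and 125 CPM to 72.3, 66.6 and 68.7 CPM (adjusted p = 0.00411). Its level in day-0 cells was between those of BUB1 and MAD2L1 per length (14.7 CPM per kb, against 21.95 and 11.97), and in ND-646 cells it was above both (8.99 against 3.29 and 2.10). MAD1L1, the kinetochore receptor of MAD2, was at 44.1, 35.9 and 30.8 CPM in day-0 libraries and at 33.2, 25.8 and 22.9 CPM in ND-646 libraries, which overlapped (-0.45, adjusted p = 0.0948). That value passed the test with library totals, in a fit of all 24 libraries and without ND-646 replicate 1. MAD1L1 fell in TVB-3166, bleomycin, palbociclib and doxorubicin cells against day-0 cells, at -0.46 to -0.62. Against untreated day-7 cells, which were at 28.6, 26.9 and 25.5 CPM, none of the 6 drug groups had a call for MAD1L1, and the values ran from -0.16 to 0.20.

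Across the other drugs, all 6 checkpoint genes fell in TVB-3166, bleomycin, palbociclib and doxorubicin cells, and only BUB1B and TTK passed the test in alisertib cells (-0.33 and -0.43). Neither alisertib call held with library totals, in a fit of all 24 libraries or against day-7 cells, where none of the 6 was called, and that of BUB1B was also lost without day-0 replicate 3 or alisertib replicate 2 or 3. MAD2L1 was at 45.6, 38.8 and 44.8 CPM in palbociclib libraries and at 46.6, 43.5 and 48.6 CPM in doxorubicin libraries. Its alisertib libraries, at 58.7, 57.7 and 61.3 CPM, overlapped those of day 0. The 6 genes together held 24.7% ± 0.45 of the summed level of the 47 in ND-646 cells, against 19.95% ± 0.46 in day-0 cells. The share of BUB1, BUB1B, MAD2L1 and TTK went from 13.03% ± 0.19 to 7.37% ± 0.71, and that of BUB3 and MAD1L1 from 6.91% ± 0.49 to 17.4% ± 1.14.

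**Figure D4:**
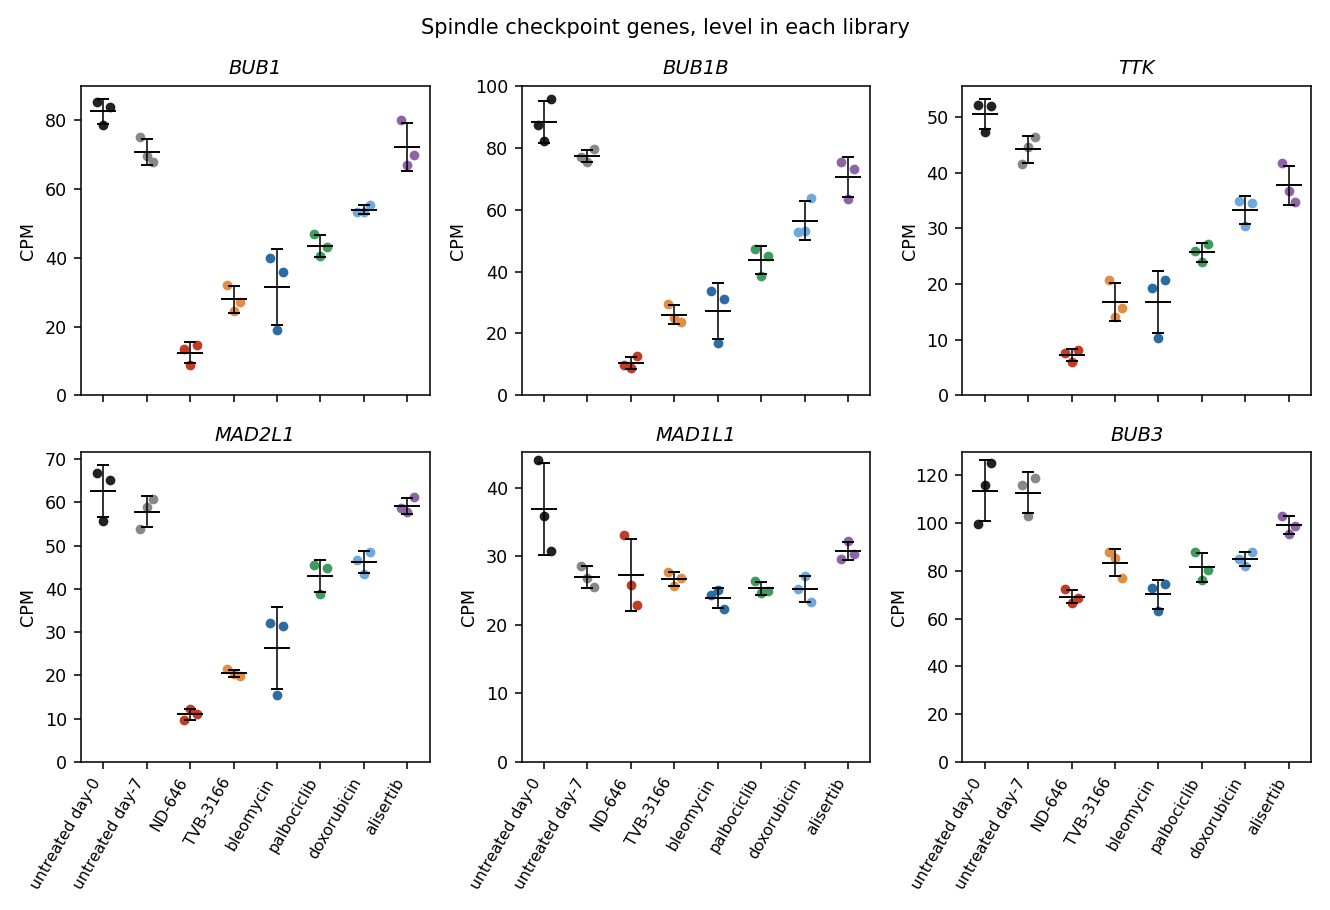
Level (CPM) of the 6 spindle checkpoint genes in each library, by group, with 1 panel per gene, points for libraries and bars for the mean and SD of 3. BUB1, BUB1B, MAD2L1 and TTK are lowest in ND-646 cells. BUB3 (group means 69.2 to 113.5 CPM) and MAD1L1 (23.9 to 36.9 CPM) span a narrower range over the 8 groups in fold terms.

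The RZZ complex and its adaptor Spindly, which bring dynein and MAD1-MAD2 to unattached kinetochores, fell in ND-646 cells in all 4 genes. ZWILCH fell by 2.01, SPDL1 by 1.99 and KNTC1 by 1.58, whereas ZW10, which also acts in membrane traffic outside mitosis, fell by 0.66. ZW10 was called lower in all 6 drug groups against day-0 cells, at -0.41 to -0.69. Against day-7 cells the call held in TVB-3166 cells (-0.37), and the other 5 groups had values of -0.33 to -0.08 that did not pass. The motors and corona proteins CENPE, CENPF and KIF2C fell in ND-646 cells, at -2.47 (KIF2C) to -2.79 (CENPF), and CENPE fell in all 6 groups. At the inner centromere, CDCA8, the borealin subunit of the chromosomal passenger complex, fell by 2.78 in ND-646 cells, and the shugoshins SGO1 and SGO2, protectors of centromeric cohesion, by 2.29 and 2.56.

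The 2 inhibitors of fatty acid synthesis were compared directly at the same dose and time. All 6 genes called were lower in ND-646 than in TVB-3166 cells: KNL1, ZWINT, BUB1B, MAD2L1, CENPE and SGO1. Over all genes tested, 0.52% were lower. KNL1 was at 27.9, 21.2 and 27.3 CPM in TVB-3166 libraries, against 8.27, 9.54 and 11.5 CPM with ND-646 (difference -1.39, SE 0.18, adjusted p = 0.0404). SGO1 was at 13.6, 12.0 and 12.8 CPM against 6.17, 5.60 and 5.41 CPM (-1.17, SE 0.15), and BUB1B at 29.5, 24.9 and 23.7 CPM against 9.64, 8.97 and 12.8 CPM (-1.32, SE 0.18). No library of one group overlapped the other for these genes. Replicate numbers were read as pairs here, and with a replicate block 18 genes were called, all lower in ND-646 cells (1.62% of all genes). The count went to 35 without ND-646 replicate 1 and to 0 without any other single library. The median difference over the 47 was -0.85, beside 0.01 over all genes.

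Against bleomycin cells, ND-646 cells were lower in 10 genes, among which were BUB1, BUB1B, MAD2L1 and TTK, and higher in none (4.63% of all genes were lower). KNL1 was at 37.8, 18.4 and 32.7 CPM in bleomycin libraries (-1.61, SE 0.28, adjusted p = 0.0132), BUB1B at 33.9, 17.0 and 31.3 CPM (-1.40, SE 0.28) and CENPP at 4.07, 3.07 and 4.36 CPM against 1.93, 1.40 and 1.47 CPM (-1.27, SE 0.28). Bleomycin replicate 2 was the lowest in each. The count was 25 with the replicate block, 24 of them lower (8.03% of all genes), and it ran from 0 without bleomycin replicate 1 or 3 to 21 without bleomycin replicate 2. It was 1 without ND-646 replicate 2 and 2 without ND-646 replicate 3.

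Palbociclib and TVB-3166 cells differed in 19 of the 47 genes, and 40.2% of all genes tested differed between them. Replicate numbers were read as pairs here, and with a replicate block 25 of the 47 differed (49.4% of all genes), 20 higher and 5 lower in palbociclib cells. The following calls are those without the block. In palbociclib cells 16 of the 47 were higher than in TVB-3166 cells and 3 were lower, where 20.2% and 20% of all genes were. The 3 lower were PMF1 (-0.58), NDC80 (-0.76) and SKA2 (-0.51), of the MIS12, NDC80 and Ska complexes, and the block added KIF2C and SPC25 to them. The 16 included 4 of the 6 checkpoint genes (BUB1, BUB1B, MAD2L1 and TTK), ZWILCH and SPDL1, and 4 of the CCAN. ZWILCH was at 50.5, 47.9 and 50.8 CPM in palbociclib libraries and at 24.2, 23.8 and 21.5 CPM in TVB-3166 libraries (1.10, SE 0.08, adjusted p = 3.278e-06). MAD2L1 was at 45.6, 38.8 and 44.8 CPM against 21.4, 20.4 and 19.8 CPM (1.07, SE 0.09, adjusted p = 9.022e-06), and BUB1B at 47.3, 38.6 and 45.2 CPM against 29.5, 24.9 and 23.7 CPM (0.75, SE 0.11).

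Against day-0 cells, the checkpoint genes had a median of -0.74 and the RZZ genes one of -0.60 in palbociclib cells, beside -1.51 for the KMN network, -1.73 for the Ska complex and -1.60 for the corona. In TVB-3166 cells the checkpoint median, -1.57, was near that of the KMN network, -1.47. The direct count was 14 to 20 genes when single libraries were left out.

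**Figure D5:**
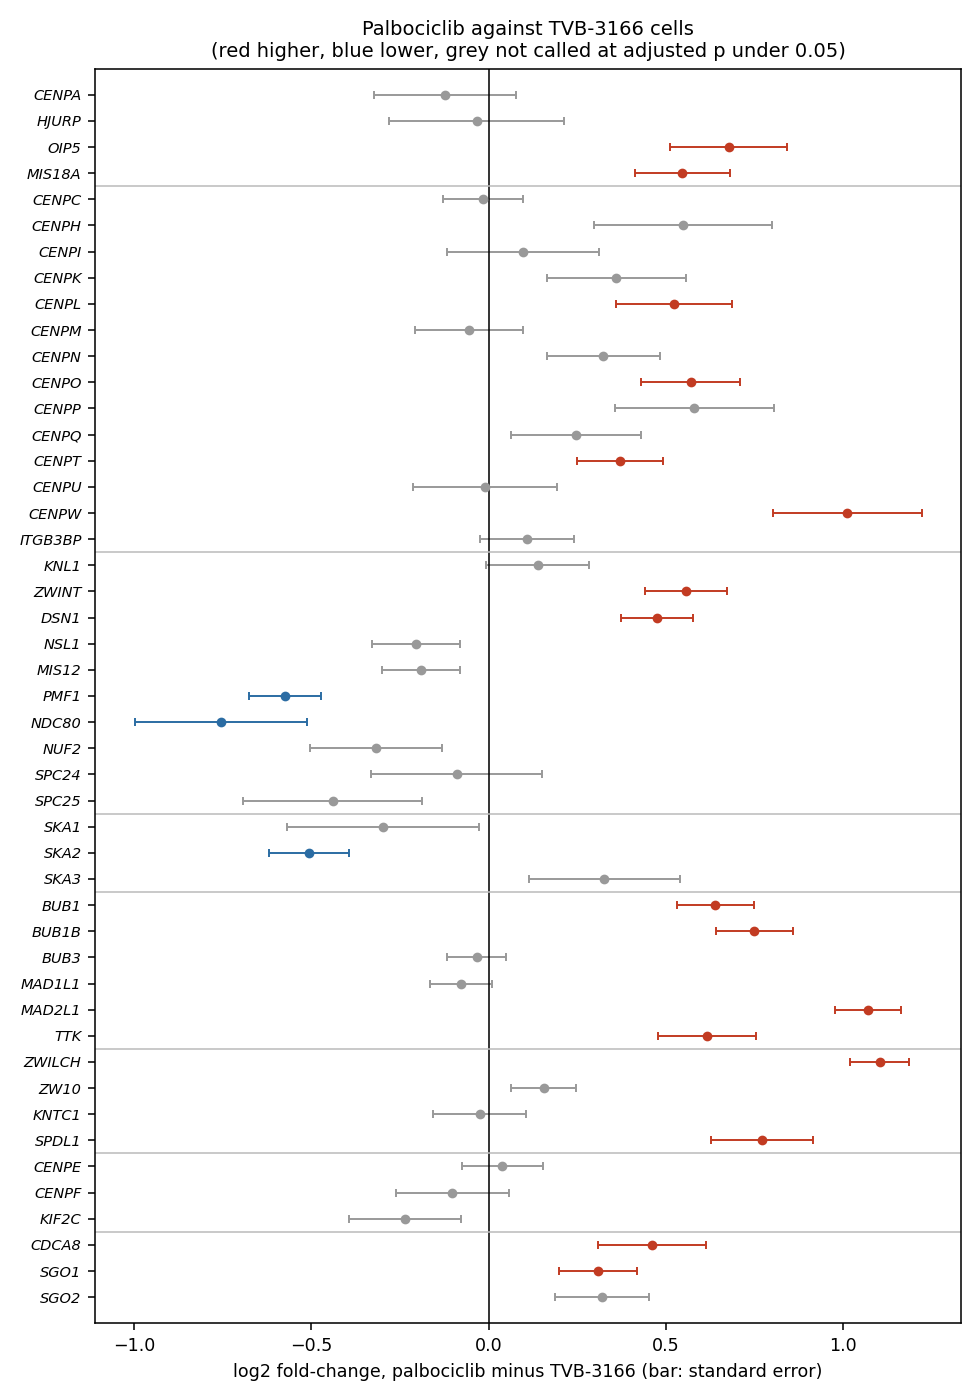
Log2 fold-change of each of the 47 genes in palbociclib relative to TVB-3166 cells, by role, with bars for the standard error; red marks genes called higher, blue genes called lower and grey genes not called. ZWILCH (1.10) and MAD2L1 (1.07) lie furthest to the right and NDC80 (-0.76) furthest to the left.

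Bleomycin cells were lower than palbociclib cells in 7 genes and higher in none, where 14.7% of all genes were lower. CENPT was at 10.8, 11.1 and 10.6 CPM against 21.3, 20.7 and 24.8 CPM (-1.04, SE 0.12, adjusted p = 0.000641), ZWILCH at 31.2, 18.8 and 32.7 CPM against 50.5, 47.9 and 50.8 CPM (-0.85) and ZWINT at 56.6, 21.8 and 49.7 CPM against 106, 84.5 and 88.9 CPM (-1.12). The groups overlapped for none of these. The other 4 were CENPC, BUB1B, MAD2L1 and SPDL1. With the replicate block 14 genes were called, all lower (19.3% of all genes), and 2, 4 and 3 were called without palbociclib replicates 1, 2 and 3.

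TVB-3166 cells were lower than doxorubicin cells in 35 genes, where 22.9% of all genes were, and higher in CENPT (0.42) and PMF1 (0.78), where 21.6% of all genes were. MAD2L1 (-1.17), BUB1B (-1.12) and ZWILCH (-0.92) had the smallest adjusted p-values, and the doxorubicin libraries of BUB1B were at 52.7, 53.1 and 63.9 CPM and those of ZWILCH at 43.0, 41.3 and 47.4 CPM, all above the TVB-3166 libraries. Between the drugs that damage DNA, 19 genes were lower in bleomycin than in doxorubicin cells and none higher (5.53% of all genes were lower). CENPA was at 8.91, 5.43 and 7.10 CPM against 14.8, 13.3 and 15 CPM (-1.01), SPDL1 at 10.5, 7.03 and 11.3 CPM against 17.9, 15.4 and 19.1 CPM (-0.86), and BUB1B differed by -1.05. That count went to 0 without doxorubicin replicate 1 or 3, to 5 without doxorubicin replicate 2 and to 11 without bleomycin replicate 3. Doxorubicin cells in turn were lower than alisertib cells in 23 genes, where 12.6% of all genes were, and higher in none. NUF2 was at 16.9, 13.3 and 15.4 CPM against 23.4, 22.6 and 21.8 CPM (-0.56), KIF2C at 51.3, 50.3 and 57.7 CPM against 81.6, 70.5 and 72.3 CPM (-0.48) and ZWINT at 97.1, 91.8 and 99.7 CPM against 135, 133 and 152 CPM (-0.53). The count was 11 without alisertib replicate 3, 13 without doxorubicin replicate 1, 14 without alisertib replicate 1 and 17 without each of the others.

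Genes that act with the kinetochore were described through 4 lists, naming the highest and lowest value of each in ND-646 cells. CDC20, PTTG1, TRIP13 and CDC27 were added after their values were seen. All 8 condensin genes, which compact mitotic chromosomes, fell in ND-646 cells, with a median of -2.44, from NCAPH (-3.18) to NCAPH2 (-0.69). All 8 also fell in TVB-3166, bleomycin, palbociclib and doxorubicin cells. Cohesin, which works throughout the cell cycle, was divided, with 6 of 14 genes lower in ND-646 cells and none higher. ESCO2, the S-phase cohesin acetyltransferase, fell by 3.29, and ESCO1, its paralogue, was at 0.53 (adjusted p = 0.0512).

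Of the anaphase-promoting complex and the effectors of the checkpoint, 13 of 22 genes fell in ND-646 cells and 1 rose, with a median of -0.57, where 18.8% of all genes fell and 19.1% rose. ESPL1, which encodes separase, fell by 3.21, PTTG1, which encodes its inhibitor securin, by 3.03, TRIP13, which takes the checkpoint complex apart, by 2.98 and the activator CDC20 by 2.89. The core subunits of the complex ran from -0.92 (CDC27) to 0.99, the value of ANAPC16, which rose (adjusted p = 0.000902). Of 19 other kinetochore and centromere proteins, 10 fell and 2 rose in the same cells. BIRC5, the survivin subunit of the chromosomal passenger complex, fell by 3.02 and BOD1, a regulator of phosphatase 2A at the kinetochore, rose by 0.78. In palbociclib cells 15 of the 22, 8 of the 14, all 8 and 13 of the 19 fell, where 27.2% of all genes fell, and in alisertib cells 10, 7, 6 and 6, where 19.6% fell.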

How the data were processed

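RNA-seq was carried out on 24 libraries of SKBR3 cells in 8 groups of 3, taken from the sample labels. The labels name a stranded mRNA kit and the paper's methods a stranded total RNA kit. The submitters' processing notes name the GRCh37 build, HISAT2, StringTie and DESeq2. The authors deposited a table of raw integer counts, with a row for each gene. The settings and strand use of the counting are not given in the sources used here. The lowest count in the table is 1, so a gene without reads in some library is not listed. Columns that could not be tied to a sample numbered 0.

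The test was edgeR's quasi-likelihood F-test (edgeR 4.0.16 under R 4.3.3), run on genes kept by filterByExpr with TMM factors and with only the libraries of both groups in each fit, over the whole table. Benjamini-Hochberg adjustment ran over all genes tested, and a gene rose or fell at an adjusted p under 0.05. Levels are CPM with TMM scaling and the SD of 3 libraries, and levels per length are CPM per kb of the annotated canonical transcript on GRCh37. With 3 libraries against 3, an exact permutation test cannot go below 0.1, so p-values come from the model. The procedure was tested on counts simulated after ND-646 and day-0 cells. There edgeR found 58 of 100 changes of log2 size 1 and 94 of 97 of size 2, with 11 false calls among 13507 genes. DESeq2 found 78 and 95 of them, with 32 false calls. Many changes of log2 size 1 were thus missed in that setting.

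The members, lists, direct comparisons and named genes were chosen with earlier results of these data known. Values in every library were given for the 5 largest falls in ND-646 cells, genes that rose in a drug group, genes without a call in any comparison with day-0 cells, the 3 smallest adjusted p-values of each direct comparison and the 6 checkpoint genes.

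Replicates differed by more than counting noise in every group. ND-646 replicate 1 and day-0 replicate 1 lay furthest from the other libraries of their groups. Chi-square per gene was 157.4 and 170.5 for ND-646 replicate 1 against replicates 2 and 3, and 14.23 between replicates 2 and 3. In day-0 cells these values were 182.8, 183.2 and 19.6. No source ties a replicate number to a shared day or batch. Same-numbered libraries deviated together from their group means (3 of 3 correlations over 0.1) in ND-646 against TVB-3166 (0.213 to 0.380), ND-646 against bleomycin (0.109 to 0.376), bleomycin against palbociclib (0.176 to 0.302) and palbociclib against TVB-3166 cells (0.124 to 0.271). The same held for bleomycin (0.107 to 0.142) and alisertib (0.105 to 0.218) against untreated day-7 cells. In those comparisons the numbers were read as pairs. Libraries with unlike numbers were not correlated for contrast, so the pairing is a reading of these values. In none of the 7 comparisons with day-0 cells were all 3 correlations over 0.1.

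Alternatives were DESeq2 1.42.0, RLE size factors, library totals, a minimum of 10 counts in all libraries of a fit, no filter at all, a shared fit of all 24 libraries, a fold-change of at least 2 with a raw or adjusted p under 0.05, a replicate block, untreated day-7 cells as reference, and each library left out in turn. The block against untreated day-7 cells was added after seeing the data.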

Additional observations from a re-analysis of the deposited data

Results flagged for a closer look

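Each value here was singled out because 2 drug groups differed in the direct edgeR test, given as the first-named group minus the second on the log2 scale. No explanation was weighed, and the values in each library are given with the comparisons above.

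ND-646 and TVB-3166 cells differed in 6 of the 47 genes, led by SGO1 (-1.17), KNL1 (-1.39) and BUB1B (-1.32). ND-646 and bleomycin cells differed in 10 genes, led by KNL1 (-1.61), BUB1B (-1.40) and CENPP (-1.27). All were lower in ND-646 cells, where 0.52% and 4.63% of all genes were lower in these comparisons. Both counts of the 47 genes went to 0 when some single libraries were left out.

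Bleomycin and palbociclib cells differed in 7 genes, led by CENPT (-1.04), ZWILCH (-0.85) and ZWINT (-1.12). All 7 were lower in bleomycin cells, where 14.7% of all genes were lower. Palbociclib and TVB-3166 cells differed in 19 genes, led by ZWILCH (1.10), MAD2L1 (1.07) and BUB1B (0.75), with 16 of them higher in palbociclib cells. Over all genes, 40.2% differed between these groups and 20.2% were higher in palbociclib cells. Without the replicate block, the 7 was near the share of all genes that were lower, and the 19 near the share differing in either direction. By direction, 16 were higher and 3 lower in palbociclib than in TVB-3166 cells, where 20.2% and 20% of all genes were. With the block, 14 were lower in bleomycin than in palbociclib cells (19.3% of all genes). For palbociclib against TVB-3166 cells 25 then differed (49.4%).

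TVB-3166 and doxorubicin cells differed in 37 genes, led by MAD2L1 (-1.17), BUB1B (-1.12) and ZWILCH (-0.92). In TVB-3166 cells 22.9% of all genes were lower and 21.6% higher than in doxorubicin cells. Doxorubicin and alisertib cells differed in 23 genes, led by ZWINT (-0.53), KIF2C (-0.48) and NUF2 (-0.56), where 12.6% of all genes were lower in doxorubicin cells. Between bleomycin and doxorubicin cells, 5.53% of all genes were lower in bleomycin cells. Bleomycin and doxorubicin cells differed in 19 genes, led by CENPA (-1.01), BUB1B (-1.05) and SPDL1 (-0.86), and that count went to 0 without doxorubicin replicate 1 or 3.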

How the results depend on the processing

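The counts of genes that fell against day-0 cells in ND-646, TVB-3166, bleomycin, palbociclib and doxorubicin cells stayed within 1.5 times the reported count under every alternative run except the fold-change rules, which gave 23 and 23 for palbociclib and 7 and 7 for doxorubicin with a raw and an adjusted p. The alisertib count of 23 was less stable, at 13 with library totals, 12 with all 24 libraries in 1 fit, 1 and 1 under the fold-change rules and 8 against untreated day-7 cells. For untreated day-7 against day-0 cells the count of 0 became 7 with DESeq2, 2 with all libraries in 1 fit and 5 with the replicate block. The share of all genes called under these settings was not counted.

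Among direct comparisons, ND-646 against TVB-3166 cells gave 28 with DESeq2, 13 with library totals, 30 with all libraries in 1 fit, 19 under the fold-change rule with a raw p and 18 with the replicate block. ND-646 against bleomycin cells gave 23, 31 (all libraries), 17 and 25 under DESeq2, the shared fit, the fold-change rule with a raw p and the block. Bleomycin against palbociclib cells gave 12 in the shared fit, 2 and 2 under the fold-change rules and 14 with the block. Palbociclib against TVB-3166 cells gave 3 and 3, TVB-3166 against doxorubicin cells 8 and 8, doxorubicin against alisertib cells 0 and 0, and bleomycin against doxorubicin cells 11 and 9 under the fold-change rules. In the shared fit the last pair gave 30 and doxorubicin against alisertib cells 2. The block gave 14 in place of 8 for alisertib against untreated day-7 cells, and it raised the genes lower in palbociclib than in TVB-3166 cells from 3 to 5. It moved none of the other counts of genes called by over 1.5 times.

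With each library left out in turn, counts against day-0 cells ranged from 41 to 44 (ND-646), 42 to 43 (TVB-3166), 41 to 43 (bleomycin), 40 to 43 (palbociclib), 35 to 40 (doxorubicin), 14 to 24 (alisertib) and 0 to 0 (untreated day-7). Direct counts ranged from 0 to 35 (ND-646 against TVB-3166), 0 to 21 (ND-646 against bleomycin), 2 to 8 (bleomycin against palbociclib), 14 to 20 (palbociclib against TVB-3166), 31 to 36 (TVB-3166 against doxorubicin), 11 to 17 (doxorubicin against alisertib) and 0 to 27 (bleomycin against doxorubicin).

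Signs turned only for values without a call. In ND-646 cells MAD1L1 was at 0.001 against untreated day-7 cells, and ITGB3BP was at -0.344 against those cells. With single libraries left out, ITGB3BP ranged from -0.173 without day-0 replicate 2 to 0.099 without ND-646 replicate 3, with 0.025 and 0.007 without day-0 replicates 1 and 3. In alisertib cells MAD2L1 was at 0.056 with library totals, and BUB1, MAD1L1 and MAD2L1 at 0.043, 0.20 and 0.049 against untreated day-7 cells. Relative to TMM, library totals moved the median of all genes against day-0 cells by 0.14 in alisertib, 0.13 in palbociclib, 0.11 in doxorubicin and -0.11 in ND-646 cells. The cause of these changes was not tested.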
